A study of Mus musculus with 9 samples.

Results

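Mitochondrial fatty-acid activation and oxidation was described through 32 genes, chosen by symbol from the enzymes and carriers that activate fatty acids, move them into mitochondria and shorten them there. All 32 were above 0 in each of the 9 livers, out of 16889 symbols above 0 in at least 1 liver and 23183 symbols in all. The study fed mice a high-fat diet and gave some of them a polymethoxyflavone-rich fraction of Citrus sunki leaf (PRF), to ask what the fraction does in diet-induced obesity. Poly(A)-selected liver RNA was sequenced from 3 groups of 3 mice, 1 library per mouse, with a directional kit on a NovaSeq instrument. All mice were male C57BL/6J at postnatal day 100 whose tissues were taken after a fast of 8 h.

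The ND group (mice 6, 7 and 9) ate a normal diet with 14% fat for 10 weeks. The HFD group (mice 1, 2 and 3) ate a diet with 60% fat for the same 10 weeks. The PRF 50 group (mice 3, 9 and 10) ate the 60% fat diet for 10 weeks and received PRF by mouth at 50 mg/kg/day during the last 5 weeks. PRF was given in carboxymethyl cellulose, and whether ND and HFD mice received that vehicle is not given in the sources used here. Mouse numbers are those of each group's own labels and do not link mice across groups.

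A fatty acid is first joined to coenzyme A by an acyl-CoA synthetase, and long chains then cross the inner mitochondrial membrane as carnitine esters. In the matrix each round of β-oxidation removes an acetyl-CoA through a dehydrogenation, a hydration, another dehydrogenation and a thiolysis, with helper enzymes for double bonds. The liver uses this route in fasting to make energy and ketone bodies, and the nuclear receptor PPARα controls many of its genes.

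Levels are given as log2(FPKM + 1), where fold changes of weakly expressed genes come out too small. A gene is called when limma's moderated test gave a Benjamini-Hochberg adjusted p under 0.05 over all genes that averaged 1 FPKM or more in the 6 mice compared. Errors of group means are SDs over 3 mice, and those of fold changes are standard errors (SE). HFD served in 2 of the 3 comparisons, as did each other group, so the comparisons share mice. The absolute depth is unknown. Relative depth, read from the steps between low values, ran from 0.963 in PRF 50 mouse 10 to 1.6 in HFD mouse 3, with HFD mouse 1 set to 1. Between 14372 and 14980 genes were above 0 per mouse. HFD mouse 2 stood apart in 1 gene, Rnu6, which held the highest value of all 9 mice there and was at 0.00 in the other mice.

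The genes of the oxidation route were mostly highest in HFD and lowest in PRF 50. In such bulk samples fewer cells of a type and less RNA per cell cannot be told apart. Their summed level was 4662, 4404 and 4593 FPKM in HFD mice 1, 2 and 3. It was 4249, 3714 and 3529 FPKM in ND mice 6, 7 and 9. It was 3085, 3416 and 3249 FPKM in PRF 50 mice 3, 9 and 10. The 3 groups did not overlap in this sum. As a share of all FPKM without Rnu6, the sum was 0.812% ± 0.0562 in HFD, 0.656% ± 0.0231 in ND and 0.591% ± 0.0541 in PRF 50 (SD, n = 3). The shares of ND and PRF 50 overlapped, since PRF 50 mouse 9 was at 0.643% and ND mouse 9 at 0.638%. Group means ran in the order HFD, ND, PRF 50 in 22 of the 32 genes.

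Treated livers had lower means than HFD livers in most of these genes, of which 12 passed the test. In PRF 50 against HFD, 28 genes had a lower mean and 4 a higher one (27 to 29 lower under the 3 other scalings tried). limma called 12 genes lower and 0 higher, where 2.16% of all 10084 genes tested were called lower and 1.43% higher. At an unadjusted p under 0.05 the counts were 25 lower and 0 higher, and 1185 lower and 854 higher among all genes tested. PRF 50 lay below HFD with no overlap in 25 genes and above it in 0, and 15.3% of all genes tested lay below with no overlap. At p under 0.05 with a fold above 2, the count was 3 lower, against 1.04% of all genes. The median log2 fold change was -0.47 over the 32 genes and -0.02 over all genes tested. The calls depended on single mice. Without HFD mouse 2, without HFD mouse 3 or without PRF 50 mouse 3, limma called 0 of the 32, with 31, 15 and 40 calls among all genes. The counts were 6 without HFD mouse 1, 13 without PRF 50 mouse 9 and 5 without PRF 50 mouse 10. Among all genes the calls were then 215, 242 and 168. The median of the 32 genes lay between -0.58 and -0.42 in the 6 fits that left out 1 mouse.

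Other choices also ended calls in PRF 50 against HFD. Quantile normalization ended those of Acsl1, Acadl, Acad11, Hadha, Hadh and Etfdh. Median-of-ratios scaling ended those of Acad11 (adjusted p = 0.0503) and Hadha (adjusted p = 0.0525). Scaling to hepatocyte markers ended those of Acad11, Hadha and Etfdh. With no minimum level, Crat and the 6 genes lost under quantile normalization were not called, and in 1 fit of all 9 mice Acadl was not. At a minimum of 10 FPKM Acss3 was too low to be tested. Slc25a20, Acadm, Eci1 and Decr1 lost their calls only when a mouse was left out. Some choices added calls from limma instead. Hadhb was called lower in 1 fit of all 9 mice (adjusted p = 0.0363). Acsm3 was called lower after scaling to hepatocyte markers (adjusted p = 0.0415), and Cpt2 at a minimum of 10 FPKM. Without PRF 50 mouse 9, Cpt2 (adjusted p = 0.0458), Slc22a5 (0.0400) and Cpt1a (0.0448) were called lower.

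The high-fat diet went with higher means in most of the route, but only 3 genes passed the test. Between HFD and ND, 23 genes had a higher mean and 9 a lower one (23 to 30 higher under the 3 other scalings). limma called 3 higher and 0 lower, where 0.702% of all 9978 genes tested were called higher and 0.631% lower. At an unadjusted p under 0.05 there were 15 higher and 0 lower, and 780 higher and 724 lower among all genes tested. HFD lay above ND with no overlap in 17 genes and below it in 0, and 10.7% of all genes lay above with no overlap. Past p and a fold of 2 there were 2 higher, against 0.692%. The median was 0.28, and -0.01 over all genes. Without HFD mouse 1, 2 or 3 or ND mouse 7 or 9, limma called 1 gene, and without ND mouse 6 it called 2. Among all genes there were 140, 41 and 35 calls without HFD mouse 1, 2 and 3. Without ND mouse 6, 7 and 9 there were 63, 39 and 94. Hadh and Cpt1a also lost their calls with no minimum level, and Cpt1a in 1 fit of all 9 mice.

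Treated livers on the high-fat diet also had lower means than livers on the normal diet in most genes, without passing the test. Between PRF 50 and ND, 29 genes had a lower mean and 3 a higher one, but only 22 were lower after quantile normalization and 23 after scaling to hepatocyte markers. limma called 0 genes, where 0.298% of all 10051 genes tested were called lower and 0.159% higher. At an unadjusted p under 0.05 there were 6 lower and 0 higher, and 647 lower and 609 higher among all genes tested. The groups did not overlap in 11 genes lower and 0 higher, against 11.8% and 8.19% of all genes. Past p and a fold of 2 there was 1 lower gene, Acss3, against 0.716%. The median was -0.23, and -0.03 over all genes.

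**Figure D1:**
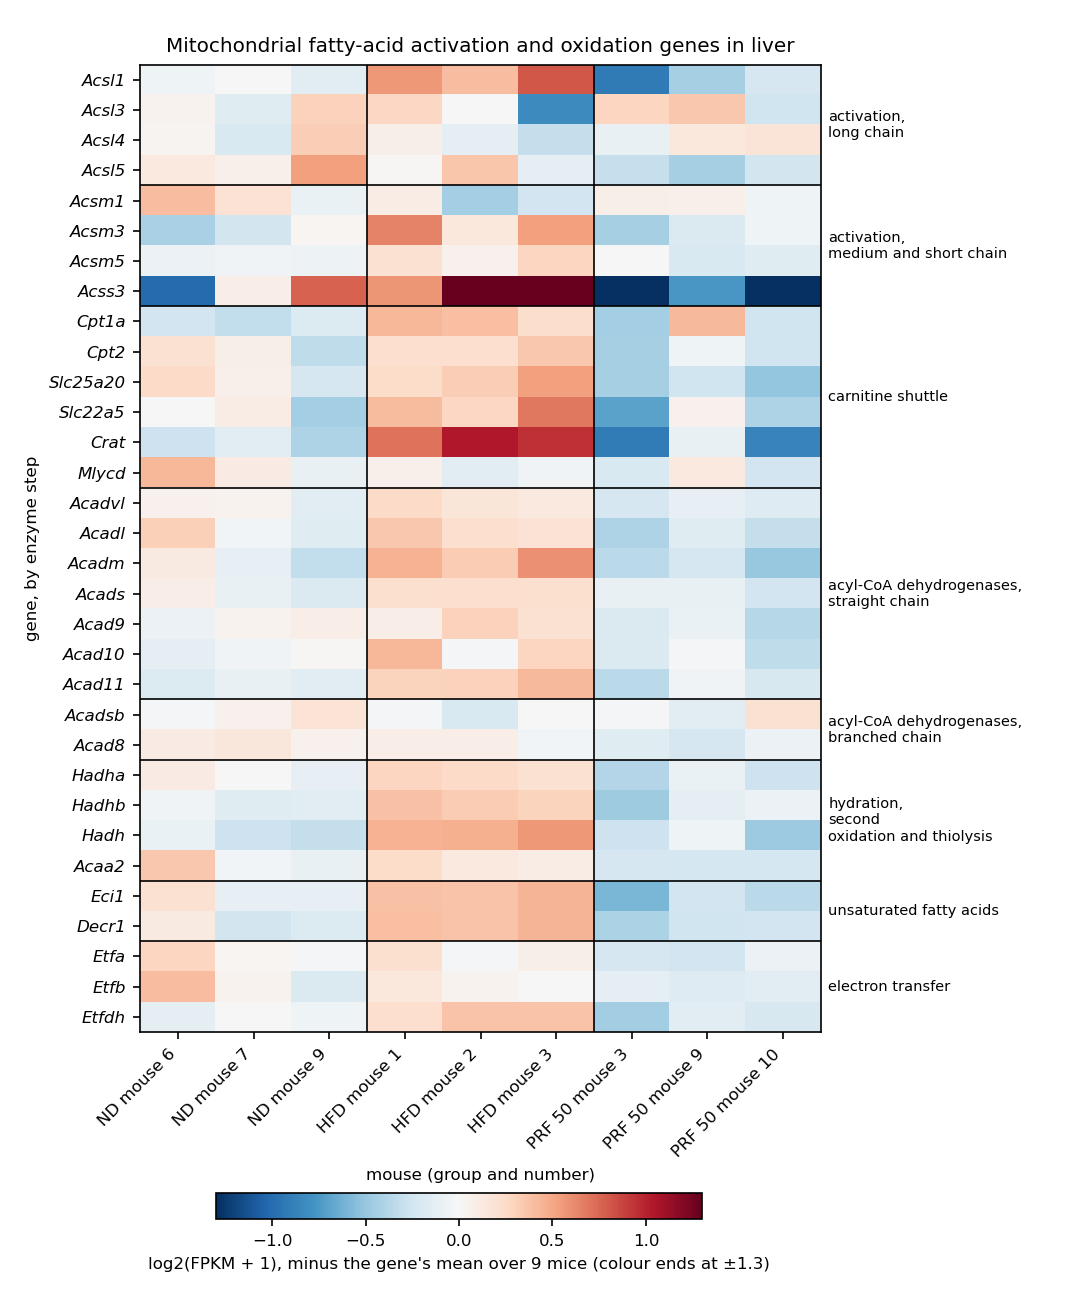
Level of each of the 32 genes in each of the 9 mice, drawn as the difference from the gene's mean over all mice on the log2 scale, with genes ordered by enzyme step. HFD mice are mostly above the mean and PRF 50 mice mostly below it; group means run in the order HFD, ND, PRF 50 in 22 genes and in other orders in the remaining 10.

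The long-chain acyl-CoA synthetases join fatty acids to coenzyme A at the outer mitochondrial membrane and the endoplasmic reticulum. Acsl1, the main form in liver, stood at 8.53, 8.36 and 8.77 in HFD mice 1, 2 and 3. It was 7.91, 7.97 and 7.81 in ND mice 6, 7 and 9, and 7.04, 7.53 and 7.74 in PRF 50 mice 3, 9 and 10. The 3 groups did not overlap, with HFD highest and PRF 50 lowest. Acsl1 fell by 1.11 in PRF 50 against HFD (SE 0.20, adjusted p = 0.0336 from limma), a fold of 2.16. HFD against ND gave 0.65 (adjusted p = 0.0834), and PRF 50 against ND gave -0.46 (adjusted p = 0.375). The adjusted p of PRF 50 against HFD was 0.0703 without HFD mouse 1, 0.0868 without HFD mouse 2 and 0.112 without HFD mouse 3. It was 0.0713 without PRF 50 mouse 3 and 0.0655 without PRF 50 mouse 9. So the call for Acsl1 held in 1 of the 6 fits, the one without PRF 50 mouse 10.

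The other long-chain synthetases did not pass the test in any comparison. Acsl5 averaged 7.13 ± 0.26 in ND, 6.97 ± 0.25 in HFD and 6.57 ± 0.10 in PRF 50. Its PRF 50 mice were below all HFD and all ND mice. The difference was -0.41 from HFD (adjusted p = 0.161) and -0.56 from ND (adjusted p = 0.173, the lowest of the 32 genes in that comparison). Acsl3 and Acsl4, which prefer unsaturated fatty acids, were low in these livers. Acsl3 averaged 3.0 ± 0.23 in ND, 2.75 ± 0.57 in HFD and 3.06 ± 0.33 in PRF 50. Acsl4 averaged 3.75 ± 0.25 in ND, 3.58 ± 0.19 in HFD and 3.76 ± 0.14 in PRF 50. Their groups overlapped in all 3 comparisons. The summed FPKM of the 4 synthetases was 245 to 332 in PRF 50, 386 to 417 in ND and 496 to 555 in HFD, most of it from Acsl1.

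Medium- and short-chain acids are activated by other synthetases inside mitochondria. Acss3, which activates propionate, was low and varied between mice. It was 3.46, 4.28 and 4.52 in HFD mice 1, 2 and 3, and 1.49, 2.13 and 1.58 in PRF 50 mice 3, 9 and 10. ND mice 6, 7 and 9 were at 1.89, 2.97 and 3.65. PRF 50 lay below HFD with no overlap, and ND spread across the gap between them and overlapped both. Acss3 fell by 2.35 in PRF 50 against HFD (SE 0.29, adjusted p = 0.0150 from limma), a fold of 5.11 and the largest among the 32 genes. With 1 mouse left out, the adjusted p was 0.0604 without HFD mouse 2, 0.0529 without HFD mouse 3 and 0.0520 without PRF 50 mouse 3. HFD against ND gave 1.25 (SE 0.44, adjusted p = 0.241), a fold of 2.38. PRF 50 against ND gave -1.10 (SE 0.41, adjusted p = 0.324), a fold of 2.14. Both passed p under 0.05 with a fold above 2 but not the adjusted test. That pass was lost without HFD mouse 2, HFD mouse 3 or ND mouse 6 in HFD against ND, where Acss3 then gave 1.16, 1.04 and 0.78. It was lost in PRF 50 against ND without ND mouse 7 (-1.03), ND mouse 9 (-0.70), PRF 50 mouse 3 (-0.98) or PRF 50 mouse 10 (-1.03).

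Acsm1, Acsm3 and Acsm5 are medium-chain synthetases that lie within one stretch of chromosome 7, and reads of such close relatives may be shared between them. Acsm3 averaged 5.42 ± 0.23 in ND, 6.07 ± 0.26 in HFD and 5.40 ± 0.19 in PRF 50. HFD mice were above both other groups with no overlap, and the difference of PRF 50 from HFD was -0.66 (adjusted p = 0.0684). Acsm5 averaged 5.59 ± 0.01, 5.83 ± 0.11 and 5.54 ± 0.10 in ND, HFD and PRF 50. Acsm1, the most abundant of the 3, averaged 7.48 ± 0.24, 7.12 ± 0.27 and 7.34 ± 0.08 in the same order, with overlap in every comparison. So within this step 1 gene was called and Acsm1 did not share the order of the others.

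**Figure D2:**
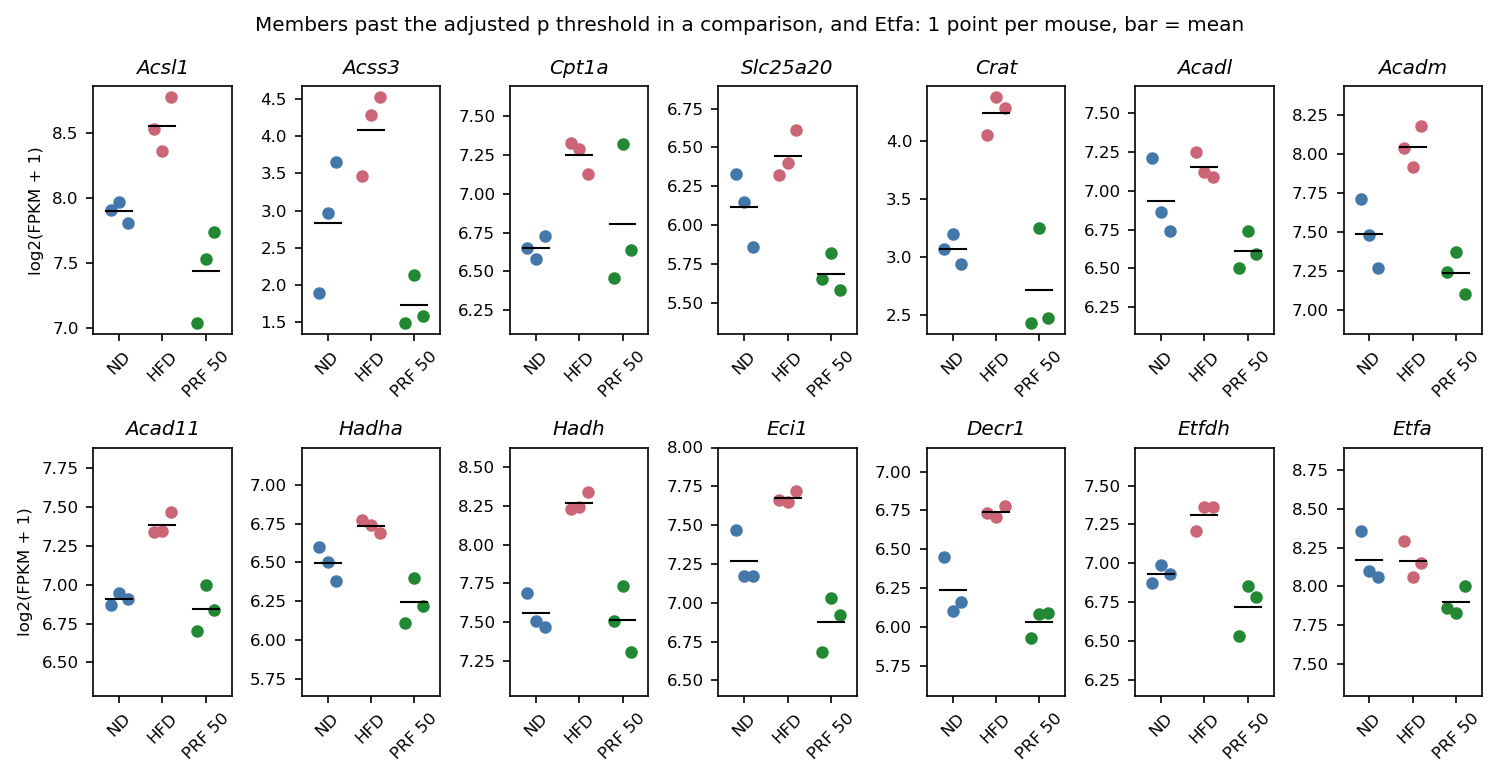
Level on the log2(FPKM + 1) scale in each mouse (points, 3 per group) with the group mean (bar), for the 14 genes whose values are given mouse by mouse. Crat and Acadm show HFD mice above ND mice and PRF 50 mice, while Etfa shows HFD and ND mice at the same level.

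The carnitine shuttle carries long-chain acyl groups into the matrix. Cpt1a, the outer-membrane transferase and the controlled step of entry, stood at 7.33, 7.29 and 7.13 in HFD mice 1, 2 and 3. ND mice 6, 7 and 9 were at 6.65, 6.58 and 6.73. PRF 50 mice 3, 9 and 10 were at 6.46, 7.32 and 6.64, so that mouse 9 lay among the HFD mice and the other PRF 50 mice among or below the ND mice. Cpt1a rose by 0.60 in HFD against ND (SE 0.11, adjusted p = 0.0483 from limma). That call was lost without any 1 of the 6 mice. The adjusted p was 0.0958, 0.220 and 0.129 without HFD mouse 1, 2 and 3, and 0.0844, 0.203 and 0.0773 without ND mouse 6, 7 and 9. PRF 50 against HFD gave -0.44 (adjusted p = 0.306), and -0.70 (adjusted p = 0.0448) without PRF 50 mouse 9, with 0.0448 to 0.567 over the alternatives. PRF 50 against ND gave 0.16 (adjusted p = 0.792), and -0.10 without PRF 50 mouse 9.

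Slc25a20, the carrier that exchanges acylcarnitine for carnitine across the inner membrane, was 6.32, 6.40 and 6.61 in HFD mice 1, 2 and 3. It was 6.33, 6.15 and 5.86 in ND mice 6, 7 and 9, and 5.65, 5.82 and 5.58 in PRF 50 mice 3, 9 and 10. PRF 50 was below both other groups, and HFD and ND overlapped. Slc25a20 fell by 0.76 in PRF 50 against HFD (SE 0.11, adjusted p = 0.0232 from limma). PRF 50 against ND gave -0.43 (adjusted p = 0.285), and HFD against ND gave 0.33 (adjusted p = 0.345). The adjusted p of PRF 50 against HFD was 0.0759 without HFD mouse 2, 0.0719 without HFD mouse 3, 0.0735 without PRF 50 mouse 3 and 0.0522 without PRF 50 mouse 10. Cpt2, the inner transferase that returns the acyl group to coenzyme A, averaged 5.81 ± 0.28 in ND, 6.09 ± 0.07 in HFD and 5.58 ± 0.19 in PRF 50. It did not pass in PRF 50 against HFD (-0.51, adjusted p = 0.0575). Slc22a5, the carnitine importer of the cell surface, averaged 3.23 ± 0.29, 3.80 ± 0.22 and 3.0 ± 0.38 in ND, HFD and PRF 50. Its PRF 50 mice were below all HFD mice, and the test gave -0.80 (adjusted p = 0.0785).

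Crat moves short acyl groups between coenzyme A and carnitine. It was 4.05, 4.38 and 4.29 in HFD mice 1, 2 and 3, and 3.07, 3.20 and 2.94 in ND mice 6, 7 and 9. PRF 50 mice 3, 9 and 10 were at 2.43, 3.25 and 2.47. HFD lay above both other groups, and PRF 50 mouse 9 reached past the ND mice. Crat rose by 1.17 in HFD against ND (SE 0.12, adjusted p = 0.00731 from limma), a fold of 2.25, and this call held without each of the 6 mice (adjusted p from 0.00747 to 0.0406). Its difference in PRF 50 against HFD was -1.52 with an interval of -2.04 to -1.01 (95%), a fold of 2.88 and an adjusted p of 0.0229. That adjusted p was 0.0804 without HFD mouse 2, 0.0796 without HFD mouse 3, 0.0651 without PRF 50 mouse 3 and 0.0501 without PRF 50 mouse 10. PRF 50 against ND gave -0.35 (adjusted p = 0.533). Mlycd, which breaks down the malonyl-CoA that inhibits Cpt1a, averaged 5.80 ± 0.27 in ND, 5.61 ± 0.10 in HFD and 5.54 ± 0.21 in PRF 50. Its differences were -0.07 from HFD in PRF 50, which turned to 0.04 after quantile normalization, and -0.19 from ND in HFD, which turned to 0.04 after scaling to hepatocyte markers. So 2 of the 6 shuttle genes were called lower in PRF 50 against HFD and 2 higher in HFD against ND, and Crat was in both counts. Of all genes tested, 2.16% were called lower in the first comparison and 0.702% higher in the second. The call of Cpt1a, the other gene called higher, was lost without any 1 of the 6 mice.

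The first dehydrogenation is done by acyl-CoA dehydrogenases that differ in the chain length they accept. Acadm, the medium-chain enzyme, was 8.04, 7.92 and 8.18 in HFD mice 1, 2 and 3. It was 7.71, 7.48 and 7.27 in ND mice 6, 7 and 9, and 7.24, 7.37 and 7.10 in PRF 50 mice 3, 9 and 10. HFD stood above both other groups, and ND and PRF 50 overlapped through ND mouse 9 and PRF 50 mouse 9. The difference of -0.81 in PRF 50 against HFD had an interval of -1.08 to -0.54 (95%), with an adjusted p of 0.0222. Leaving out 1 mouse gave an adjusted p of 0.0625 without HFD mouse 2, 0.0733 without HFD mouse 3 and 0.0710 without PRF 50 mouse 3. HFD against ND gave 0.56 (adjusted p = 0.139), and PRF 50 against ND gave -0.25 (adjusted p = 0.521).

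Acadl, the long-chain enzyme, was 7.25, 7.12 and 7.09 in HFD mice 1, 2 and 3, and 7.21, 6.86 and 6.74 in ND mice 6, 7 and 9. PRF 50 mice 3, 9 and 10 were at 6.50, 6.74 and 6.59. HFD and ND overlapped, and PRF 50 was below HFD throughout. Acadl fell by 0.54 in PRF 50 against HFD (SE 0.10, adjusted p = 0.0371 from limma). That call ended with an adjusted p of 0.0726, 0.116 and 0.106 without HFD mouse 1, 2 and 3, 0.110 without PRF 50 mouse 3 and 0.0822 without PRF 50 mouse 10. Acad11, which can act on very long chains and on hydroxylated acids, was 7.34, 7.35 and 7.47 in HFD mice 1, 2 and 3. It was 6.87, 6.95 and 6.91 in ND mice 6, 7 and 9, and 6.70, 7.0 and 6.84 in PRF 50 mice 3, 9 and 10. ND and PRF 50 overlapped, and HFD lay above both. Acad11 fell by 0.54 in PRF 50 against HFD (SE 0.11, adjusted p = 0.0414 from limma). The adjusted p was 0.0713, 0.129 and 0.142 without HFD mouse 1, 2 and 3, 0.115 without PRF 50 mouse 3 and 0.0912 without PRF 50 mouse 10. The annotation places another coding gene, Gm28305, on the same strand over Acad11, so its reads may be shared.

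The remaining enzymes grouped here as straight-chain kept the order of group means of HFD, ND and PRF 50 without passing the test. The place of Acad10 in this group is uncertain. Acadvl, the very-long-chain enzyme, averaged 7.53 ± 0.12 in ND, 7.73 ± 0.06 in HFD and 7.38 ± 0.05 in PRF 50 (-0.35 from HFD, adjusted p = 0.0853). Acads, the short-chain enzyme, averaged 6.35 ± 0.14, 6.63 ± 0.01 and 6.27 ± 0.09 in ND, HFD and PRF 50 (-0.36 from HFD, adjusted p = 0.0687). Acad9, which also helps assemble respiratory complex I, averaged 3.46 ± 0.09, 3.64 ± 0.11 and 3.23 ± 0.14 in the same order. Acad10 averaged 3.02 ± 0.06, 3.29 ± 0.24 and 2.89 ± 0.15. Of these 4, only Acad10 overlapped between PRF 50 and HFD.

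The dehydrogenases of branched-chain acids showed smaller differences than those grouped as straight-chain in both comparisons with HFD, but not in PRF 50 against ND. Acadsb, which acts on a product of isoleucine, averaged 5.82 ± 0.11 in ND, 5.68 ± 0.11 in HFD and 5.76 ± 0.18 in PRF 50. Its groups overlapped in all comparisons, and its difference of 0.08 from HFD in PRF 50 turned to -0.06 after scaling to hepatocyte markers. Acad8, which acts on a product of valine, averaged 4.57 ± 0.05, 4.51 ± 0.07 and 4.31 ± 0.08 in ND, HFD and PRF 50. PRF 50 mice were below all other mice in Acad8, with -0.20 from HFD (adjusted p = 0.225) and -0.26 from ND (adjusted p = 0.323). The median of the 7 genes grouped as straight-chain, Acad10 among them, was -0.41 in PRF 50 against HFD. That of these branched-chain genes was -0.06. In HFD against ND these medians were 0.27 and -0.10, and in PRF 50 against ND they were -0.15 and -0.16. The difference between the kinds of enzyme was not tested.

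Hydration, the second oxidation and thiolysis of long chains are done by the trifunctional protein, whose subunits come from Hadha and Hadhb. Hadha was 6.77, 6.74 and 6.69 in HFD mice 1, 2 and 3, and 6.60, 6.50 and 6.38 in ND mice 6, 7 and 9. PRF 50 mice 3, 9 and 10 were at 6.11, 6.40 and 6.22. HFD was above both other groups, and PRF 50 mouse 9 lay just above ND mouse 9. Hadha fell by 0.49 in PRF 50 against HFD (SE 0.10, adjusted p = 0.0453 from limma). Its adjusted p became 0.0902, 0.150 and 0.129 without HFD mouse 1, 2 and 3, 0.125 without PRF 50 mouse 3 and 0.101 without PRF 50 mouse 10. HFD against ND gave 0.24 (adjusted p = 0.346). Hadhb averaged 6.99 ± 0.06 in ND, 7.44 ± 0.05 in HFD and 6.89 ± 0.21 in PRF 50, with HFD above all other mice. It did not pass in PRF 50 against HFD (-0.55, adjusted p = 0.0610) or in HFD against ND (0.45, adjusted p = 0.105). The genes of the 2 subunits point away from each other on chromosome 5, with RefSeq starts 273 bases apart.

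Hadh, the dehydrogenase for shorter 3-hydroxyacyl-CoA, was 8.23, 8.24 and 8.34 in HFD mice 1, 2 and 3. It was 7.69, 7.51 and 7.47 in ND mice 6, 7 and 9, and 7.51, 7.73 and 7.31 in PRF 50 mice 3, 9 and 10. ND and PRF 50 overlapped, and HFD lay above both groups. Hadh rose by 0.71 in HFD against ND (SE 0.12, adjusted p = 0.0330 from limma) and fell by 0.75 in PRF 50 against HFD (SE 0.13, adjusted p = 0.0305 from limma). The first call was lost without HFD mouse 1 (adjusted p = 0.0580), HFD mouse 2 (0.142), HFD mouse 3 (0.160), ND mouse 7 (0.147) or ND mouse 9 (0.0822). The second was lost without HFD mouse 1 (0.0526), HFD mouse 2 (0.0967), HFD mouse 3 (0.106), PRF 50 mouse 3 (0.0875) or PRF 50 mouse 10 (0.0555). PRF 50 against ND gave -0.04 (interval -0.37 to 0.29), and 0.06 after quantile normalization or scaling to hepatocyte markers. Acaa2, the thiolase for shorter chains, had the highest level of the 32 genes, with a mean of 630 FPKM over the 9 mice and 16.3% of the summed FPKM. It averaged 9.36 ± 0.24 in ND, 9.44 ± 0.08 in HFD and 9.06 ± 0.01 in PRF 50. Its PRF 50 mice were below all other mice, with -0.38 from HFD (adjusted p = 0.0967) and -0.30 from ND (adjusted p = 0.472).

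Double bonds are handled by an isomerase and a reductase, and both genes were called lower in PRF 50 against HFD. Eci1, the isomerase, was 7.66, 7.65 and 7.72 in HFD mice 1, 2 and 3. It was 7.47, 7.17 and 7.17 in ND mice 6, 7 and 9, and 6.68, 7.03 and 6.92 in PRF 50 mice 3, 9 and 10. The groups did not overlap and ran from HFD over ND to PRF 50. Eci1 fell by 0.80 in PRF 50 against HFD (SE 0.11, adjusted p = 0.0212 from limma). The adjusted p was 0.0756 without HFD mouse 2, 0.0784 without HFD mouse 3 and 0.0542 without PRF 50 mouse 3. Decr1, the 2,4-dienoyl-CoA reductase, was 6.73, 6.71 and 6.78 in HFD mice 1, 2 and 3. It was 6.45, 6.10 and 6.16 in ND mice 6, 7 and 9, and 5.93, 6.08 and 6.09 in PRF 50 mice 3, 9 and 10. HFD lay above the rest, and PRF 50 mice 9 and 10 were close to ND mouse 7. Decr1 fell by 0.71 in PRF 50 against HFD (SE 0.09, adjusted p = 0.0150 from limma). Its adjusted p became 0.0624 without HFD mouse 2, 0.0615 without HFD mouse 3 and 0.0520 without PRF 50 mouse 3. In HFD against ND neither gene passed, with 0.41 for Eci1 (adjusted p = 0.191) and 0.50 for Decr1 (adjusted p = 0.119).

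Electrons from the acyl-CoA dehydrogenases pass to the electron transfer flavoprotein, made from Etfa and Etfb, and then through Etfdh to ubiquinone. Etfa was 8.29, 8.06 and 8.15 in HFD mice 1, 2 and 3, and 8.36, 8.10 and 8.06 in ND mice 6, 7 and 9. PRF 50 mice 3, 9 and 10 were at 7.86, 7.83 and 8.0. HFD and ND overlapped, and PRF 50 lay below both. None of its differences passed, with -0.27 for PRF 50 against HFD (adjusted p = 0.209) and -0.28 for PRF 50 against ND (adjusted p = 0.435). HFD against ND gave -0.01 (interval -0.32 to 0.30), which turned to 0.03 after quantile normalization and 0.22 after scaling to hepatocyte markers. Etfb averaged 8.53 ± 0.30 in ND, 8.50 ± 0.07 in HFD and 8.30 ± 0.03 in PRF 50. Another coding gene, Gm45233, lies on the same strand over Etfb. Etfdh was 7.21, 7.36 and 7.36 in HFD mice 1, 2 and 3. It was 6.87, 6.99 and 6.93 in ND mice 6, 7 and 9, and 6.53, 6.85 and 6.78 in PRF 50 mice 3, 9 and 10. The 3 groups did not overlap, with HFD highest and PRF 50 lowest. Etfdh fell by 0.60 in PRF 50 against HFD (SE 0.11, adjusted p = 0.0373 from limma). This call was lost without any 1 of the 6 mice. The adjusted p was 0.0533, 0.133 and 0.129 without HFD mouse 1, 2 and 3, and 0.0932, 0.0510 and 0.0737 without PRF 50 mouse 3, 9 and 10.

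**Figure D3:**
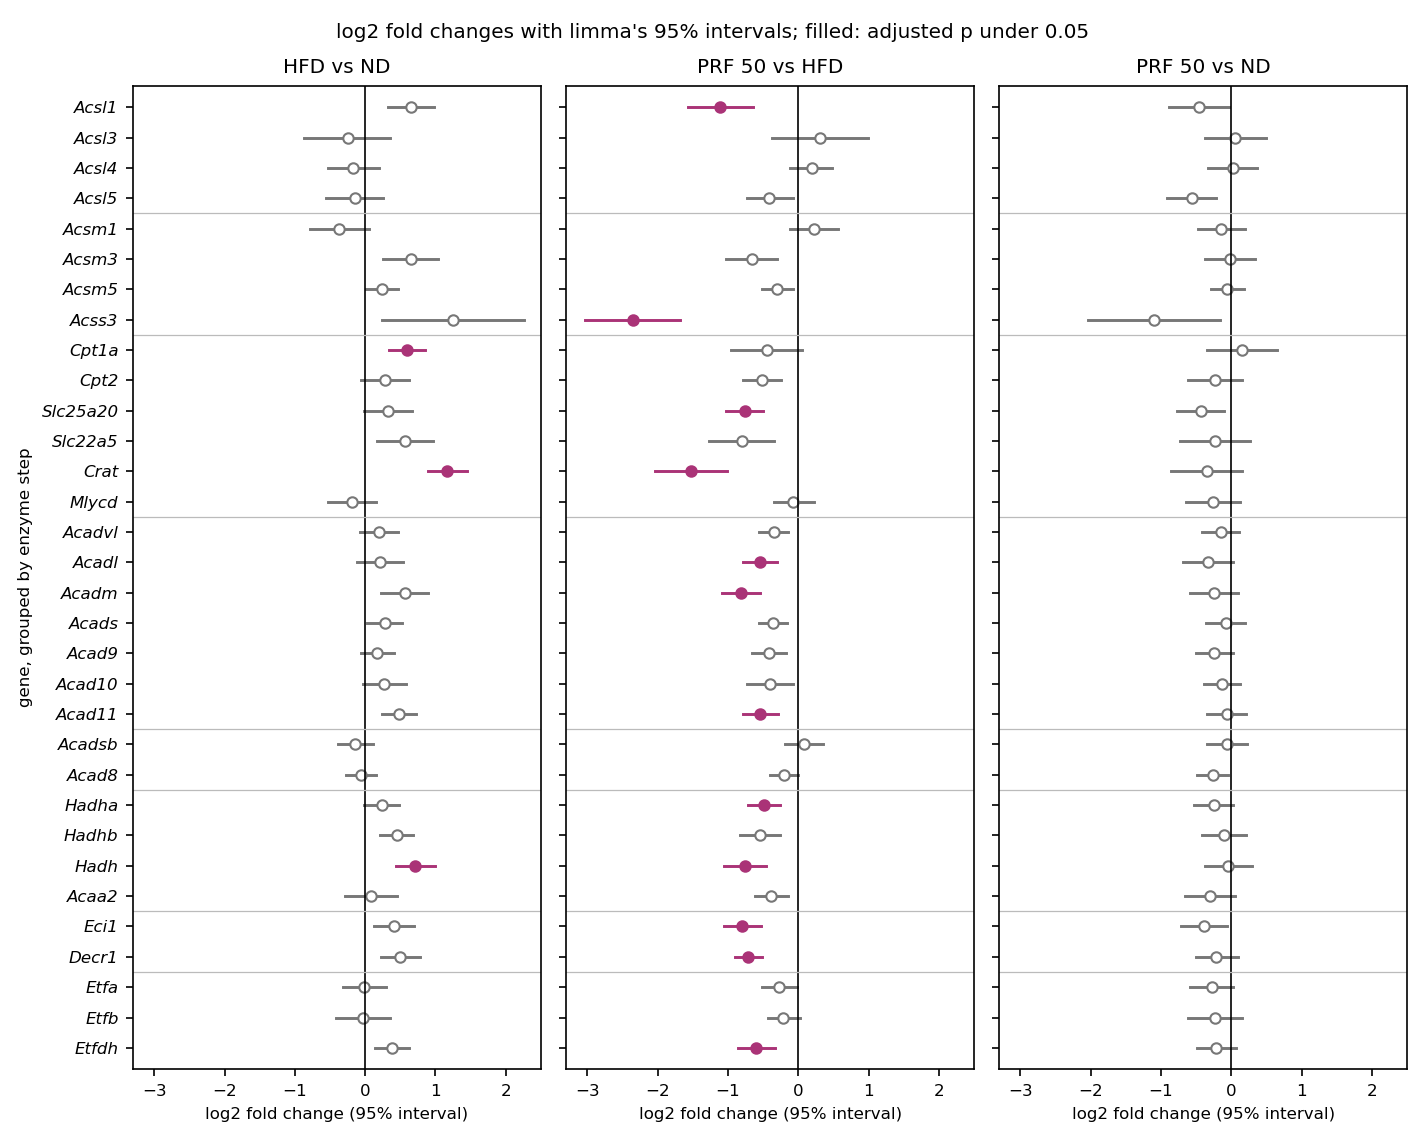
log2 fold change of each of the 32 genes in the 3 comparisons (points) with 95% intervals (bars), called genes filled. In PRF 50 against HFD 12 genes are called lower, in HFD against ND 3 are called higher and in PRF 50 against ND none is called by limma, where 6 had an unadjusted p under 0.05; directions of genes near 0 turn under other scalings.

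Within PRF 50 the mice differed. Mouse 9 was the highest of its group in 19 of the 32 genes and mouse 3 the lowest in 16. Mouse 9 also had the greatest relative depth of its group, 1.51 against 0.981 and 0.963 in mice 3 and 10. The part of depth in this order was not tested.

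The 32 genes matched genes of the same name in the GENCODE vM21 annotation of GRCm38 (mm10) and lay on 14 chromosomes. Of them, 12 overlapped another coding gene, 3 on the same strand, and the use of strand in counting is not given in the sources used here. Among called genes with a coding gene on the opposite strand were Acss3 (over Ppfia2), Crat (over Dolpp1), Hadha (over Garem2) and Etfdh (over 4930579G24Rik), whose values are uncertain to that extent. Acsl1 lies at chr8:46471037-46536051 (+), Acss3 at chr10:106933517-107123668 (-), Cpt1a at chr19:3322334-3385733 (+) and Crat at chr2:30400471-30415813 (-). Acadm lies at chr3:153922357-153944632 (-), Hadh at chr3:131233419-131272101 (-), Eci1 at chr17:24426641-24439348 (+) and Decr1 at chr4:15917240-15945507 (-).

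Promoters were read from RefSeq (GRCm38.p6) because so many of these genes differed in the same direction, and PPARα binds DNA with RXR at a pair of AGGTCA copies spaced by 1 base. The 250 bases before the start were searched on both strands in 32851 promoters, of which 28 belonged to 27 of the genes. Acaa2, Acad9, Acss3, Crat and Decr1 had no entry. The 6-letter motif AGGTCA was found exactly in 14% of all promoters and in 4 of the 28, those of Acadm, Acsm1, Acadvl and Cpt1a. The spaced pair, with up to 2 mismatches, was found in 3.24% of all promoters and in 1 of the 28, that of Etfa. Such a match is a run of letters and not a measured binding site. The promoters of Acadm (chr3:153944644-153944893, -), Acadvl (chr11:70015429-70015678, -) and Etfa (chr9:55512244-55512493, -) are shown 5′ to 3′. Acadm and Acadvl hold the exact 6-letter motif, 1 in a called and 1 in an uncalled gene, and Etfa holds the only match to the spaced pair, with 2 mismatches and without the exact 6-letter motif. Capitals mark the match, on the reverse strand in Acadm and Etfa and on the gene's strand in Acadvl.
Acadm: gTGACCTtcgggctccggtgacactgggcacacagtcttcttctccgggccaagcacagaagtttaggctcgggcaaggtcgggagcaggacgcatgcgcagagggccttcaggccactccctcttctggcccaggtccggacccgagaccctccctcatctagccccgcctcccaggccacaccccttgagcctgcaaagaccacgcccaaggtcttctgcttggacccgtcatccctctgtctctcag
Acadvl: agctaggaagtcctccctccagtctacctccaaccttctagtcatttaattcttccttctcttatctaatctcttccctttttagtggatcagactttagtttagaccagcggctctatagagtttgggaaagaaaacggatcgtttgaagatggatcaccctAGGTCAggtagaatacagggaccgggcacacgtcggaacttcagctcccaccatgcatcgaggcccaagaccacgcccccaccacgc
Etfa: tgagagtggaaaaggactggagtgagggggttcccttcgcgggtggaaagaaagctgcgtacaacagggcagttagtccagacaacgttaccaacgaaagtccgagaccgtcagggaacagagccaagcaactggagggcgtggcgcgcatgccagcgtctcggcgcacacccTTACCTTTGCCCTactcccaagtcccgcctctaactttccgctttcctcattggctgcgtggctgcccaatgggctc

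The match lies at bases 249 to 244 before the start in Acadm, 87 to 82 in Acadvl and 77 to 65 in Etfa. Acadm was called in PRF 50 against HFD (-0.81), and Acadvl (-0.35) and Etfa (-0.27) were not.

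Other genes of the route were read from a wider list. Of 18 further mitochondrial β-oxidation genes, 12 were tested in PRF 50 against HFD, 11 with a lower mean, and 2 were called lower. Acot2, a thioesterase that splits long-chain acyl-CoA in the matrix, was 3.22, 3.66 and 3.45 in HFD mice 1, 2 and 3 and 0.97, 1.67 and 1.22 in PRF 50 mice 3, 9 and 10. It fell by 2.16 in PRF 50 against HFD (SE 0.19, adjusted p = 0.00711 from limma) and rose by 1.18 in HFD against ND (SE 0.18, adjusted p = 0.0240 from limma). The call of Acot2 in PRF 50 against HFD held without each of the 6 mice (adjusted p from 0.00285 to 0.0451). In HFD against ND it was lost without HFD mouse 2 (0.0913), HFD mouse 3 (0.0974), ND mouse 7 (0.103) or ND mouse 9 (0.0601). Close relatives of Acot2 share much of its sequence, so its reads may be divided among them. Acat1, the acetyl-CoA acetyltransferase that starts ketone body synthesis, fell by 0.84 in PRF 50 against HFD (adjusted p = 0.0150) and rose by 0.72 in HFD against ND (adjusted p = 0.0234), both from limma. The first was lost without HFD mouse 2 (0.0625), HFD mouse 3 (0.0562) or PRF 50 mouse 3 (0.0520), and the second without HFD mouse 2 (0.113), HFD mouse 3 (0.101) or ND mouse 7 (0.107). The medians of the list were -0.36, 0.23 and -0.11 in PRF 50 against HFD, HFD against ND and PRF 50 against ND. Of the 12, limma called 0 in PRF 50 against ND, with 2 lower and 0 higher at an unadjusted p under 0.05. The most abundant gene of the list was Hsd17b10, not called, and Acsm4 was listed at 0 in all mice.

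Carnitine supply had 3 of 6 genes tested. Bbox1, the last enzyme of carnitine synthesis and the most abundant of the list, fell by 0.60 in PRF 50 against HFD (adjusted p = 0.0348 from limma), and the list's medians were -0.33, 0.04 and -0.24 in the 3 comparisons in the same order. In HFD against ND limma called 0, with 1 higher at an unadjusted p under 0.05, and in PRF 50 against ND it called 0, with 0 at that p. The call of Bbox1 was lost without HFD mouse 1 (0.0716), HFD mouse 2 (0.10), HFD mouse 3 (0.113), PRF 50 mouse 3 (0.0890) or PRF 50 mouse 9 (0.0731). Tmlhe was listed at 0 in all mice. The propionyl-CoA route, which takes up the end of odd chains, had 4 genes tested and none called by limma. Its counts at an unadjusted p under 0.05 were 3 lower in PRF 50 against HFD, 0 in HFD against ND and 1 lower in PRF 50 against ND, with medians of -0.27, 0.05 and -0.19. Pccb was its most abundant gene. The 4 genes of FAD supply, which serve the flavin enzymes, had 0 calls from limma, 2 lower at an unadjusted p under 0.05 in PRF 50 against HFD, 1 higher in HFD against ND and 0 in PRF 50 against ND. Their medians were -0.16, 0.12 and -0.03, and Rfk was the most abundant.

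Peroxisomes oxidise very long chains through enzymes of their own. Of 16 tested, 6 were called lower in PRF 50 against HFD (median -0.48) and 2 lower in PRF 50 against ND (median -0.15), and the median in HFD against ND was 0.28. Among the 6, Ech1, an isomerase of dienoyl-CoA, fell by 0.77 in PRF 50 against HFD (adjusted p = 0.0186 from limma). That call was lost without HFD mouse 2 (0.0756), HFD mouse 3 (0.0681) or PRF 50 mouse 3 (0.0684). The others were Acaa1b, Ehhadh, Hsd17b4 and the transporter genes Abcd2 and Abcd3. Acaa1b lost its call without HFD mouse 3 (0.0529) alone. Each of the other 4 lost it without HFD mouse 2 (0.0723 for Ehhadh, 0.116 for Hsd17b4, 0.0947 for Abcd2, 0.0977 for Abcd3), without HFD mouse 3 (0.0681, 0.121, 0.0784, 0.0920), without PRF 50 mouse 3 (0.0705, 0.110, 0.0833, 0.0758) and without PRF 50 mouse 10 (0.0522, 0.0830, 0.0501, 0.0507). Abcd2 also lost it without HFD mouse 1 (0.0609). The 2 called in PRF 50 against ND were Ehhadh, which fell by 1.16 (adjusted p = 0.0343), and Acaa1b, which fell by 1.32 (adjusted p = 0.0420). Both of these calls were lost without ND mouse 6 (0.117 for Ehhadh, 0.145 for Acaa1b), ND mouse 7 (0.0747, 0.126), ND mouse 9 (0.0618, 0.0692), PRF 50 mouse 3 (0.136, 0.137) or PRF 50 mouse 10 (0.0623, 0.0690). The most abundant gene, Scp2, was not called in any comparison.

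Genes of the citric acid cycle and of general mitochondrial content were read to set the oxidation genes beside the rest of the organelle. Of 24, 22 had a lower mean in PRF 50 against HFD and 2 were called lower, with a median of -0.25. Suclg2, a succinyl-CoA ligase subunit, was among them and fell by 0.50 (adjusted p = 0.0428 from limma). Its call was lost without HFD mouse 1 (0.0780), HFD mouse 2 (0.140), HFD mouse 3 (0.141), PRF 50 mouse 3 (0.125) or PRF 50 mouse 10 (0.0967). PRF 50 lay below HFD with no overlap in 16 of the 24, against the 15.3% of all genes that did so. In HFD against ND limma called 0, with 3 higher and 0 lower at an unadjusted p under 0.05 and a median of 0.02. For PRF 50 against ND it called 0, with 3 lower and 0 higher at that p and a median of -0.20. Their summed FPKM was 2434 to 2656 in HFD, 2228 to 2678 in ND and 1998 to 2165 in PRF 50. Sdhb was the most abundant. The part of a lower mitochondrial content in the lower oxidation genes of PRF 50 was not tested.

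Among 15 regulators of the route, 1 was called. Pparg, a receptor of fat storage, fell by 1.25 in PRF 50 against HFD (adjusted p = 0.0229) and by 1.12 in PRF 50 against ND (adjusted p = 0.0416), from limma. The first call was lost without HFD mouse 2 (0.0804), HFD mouse 3 (0.0796) or PRF 50 mouse 3 (0.0556). The second was lost without ND mouse 6 (0.148), ND mouse 7 (0.157), ND mouse 9 (0.0687), PRF 50 mouse 3 (0.126) or PRF 50 mouse 9 (0.0551). Ppara, which encodes PPARα, was 6.18, 6.26 and 6.27 in HFD mice 1, 2 and 3. It was 5.68, 5.50 and 5.78 in ND mice 6, 7 and 9, and 5.67, 5.99 and 5.49 in PRF 50 mice 3, 9 and 10. HFD lay above both other groups and ND and PRF 50 overlapped. Ppara did not pass in HFD against ND (0.59, adjusted p = 0.0521) or in PRF 50 against HFD (-0.52, adjusted p = 0.0830). In HFD against ND limma called 0 of the 15, with 2 higher and 0 lower at an unadjusted p under 0.05. At that p there were 6 lower and 0 higher in PRF 50 against HFD, and 4 lower and 1 higher in PRF 50 against ND. The medians were -0.14, 0.13 and 0.01 in PRF 50 against HFD, HFD against ND and PRF 50 against ND (14 tested in the last). Rxra was the most abundant.

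**Figure D4:**
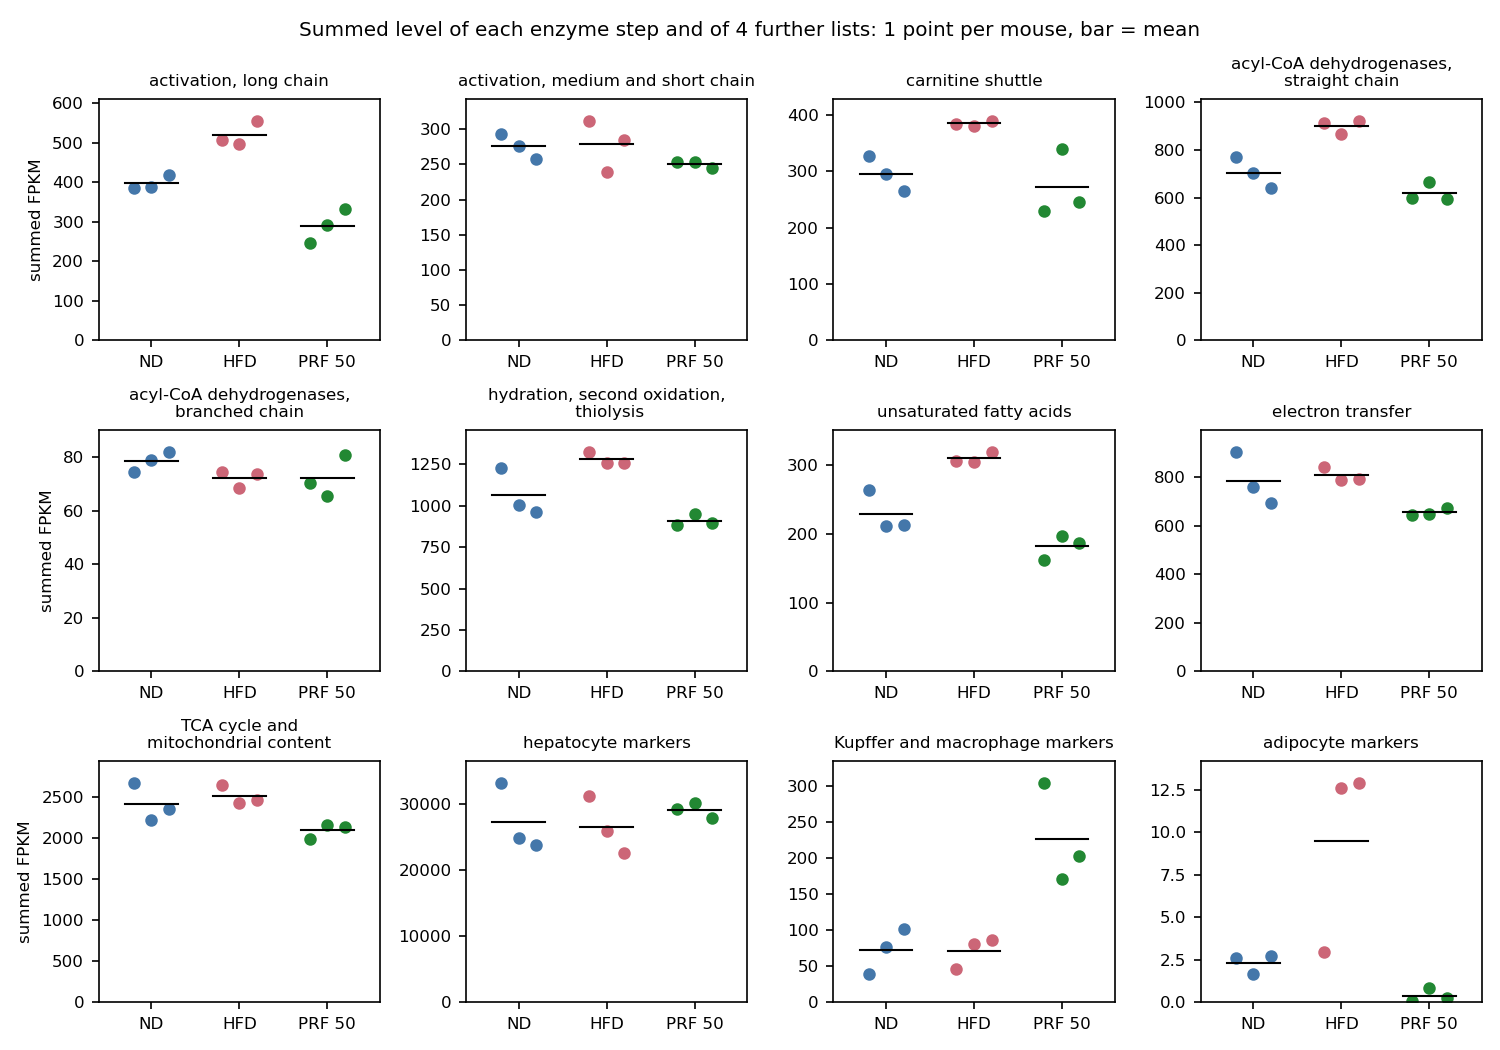
Summed FPKM of the genes of each of 8 enzyme steps and of 4 further lists in each mouse (points, 3 per group) with the group mean (bar). The steps are mostly highest in HFD, and Kupffer and macrophage markers are highest in PRF 50. The adipocyte list is near 0 in PRF 50, where its sum comes from Cidec, which fatty hepatocytes also make.

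Liver is a mixture of cell types. The hepatocyte markers were high in all mice, with Apoa1 the most abundant, while Alb was listed at 0 in all 9 mice. Their summed FPKM was 22494 to 31121 in HFD, 23751 to 33143 in ND and 27904 to 30088 in PRF 50. limma called 0 of 9 tested in each comparison, with 1 lower and 1 higher at an unadjusted p under 0.05 in PRF 50 against HFD, 2 lower in HFD against ND and 0 in PRF 50 against ND. Their medians were 0.35, -0.23 and -0.16. Scaling each mouse to these markers, chosen after seeing the data, moved the median of all genes to -0.13 in PRF 50 against HFD and to 0.19 in HFD against ND. The medians of the 32 genes were then -0.60 and 0.49, on the same side of the all-gene median as before, with 10 called lower and 7 called higher. Among all genes tested under this scaling, 2.32% were called in PRF 50 against HFD and 1.46% in HFD against ND, in either direction.

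Markers of Kupffer cells and macrophages moved with the PRF 50 group. All 7 were higher in PRF 50 than in HFD with no overlap, 6 of them called by limma, with a median of 1.49. Of all 10084 genes tested, 1103 lay higher with no overlap and 144 were called higher. Clec4f, a Kupffer cell lectin, was 5.97, 5.71 and 5.72 in PRF 50 mice 3, 9 and 10 and 3.80, 4.75 and 4.69 in HFD mice 1, 2 and 3. Cd5l, the most abundant, rose by 1.59 (SE 0.27, adjusted p = 0.0322 from limma). Its call was lost without HFD mouse 2 (0.0932), HFD mouse 3 (0.0643), PRF 50 mouse 3 (0.0833) or PRF 50 mouse 10 (0.0638). All 6 called markers lost their calls without HFD mouse 3 (adjusted p from 0.0529 in Cd68 to 0.0796 in Clec4f) or PRF 50 mouse 3 (from 0.0520 in Timd4 to 0.0955 in Clec4f). The 5 besides Timd4 also lost them without HFD mouse 2 (0.0592 in Csf1r to 0.0932 in Cd5l) or PRF 50 mouse 10 (0.0501 in Csf1r to 0.0701 in Clec4f). Further losses were Cd68 without HFD mouse 1 (0.0512) and Clec4f without PRF 50 mouse 9 (0.0667). The uncalled one was Marco (2.61, adjusted p = 0.135). Their summed FPKM was 305, 171 and 204 in PRF 50, 46.9, 81.3 and 86.5 in HFD and 40, 77.4 and 102 in ND. Against ND limma called 0 in PRF 50, with all 7 higher at an unadjusted p under 0.05 and a median of 1.33, and in HFD against ND it called 0, with 0 at that p and a median of 0.06. None of the markers was at 0. The part of a different cell mixture in the lower oxidation genes of PRF 50 was not tested.

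Of the other cell types, the sinusoidal endothelial list had 6 of 6 markers tested in each comparison and the stellate list 5 or 6 of 6. Sinusoidal endothelial markers (Clec4g most abundant) and stellate cell markers (Dcn most abundant) had 0 calls from limma in any comparison. For the first, 0 had an unadjusted p under 0.05 in PRF 50 against HFD, 2 lower in HFD against ND and 0 in PRF 50 against ND, with medians of 0.43, -0.54 and -0.22. For the second, the counts were 2 lower, 3 higher and 1 higher, with medians of -0.05, 0.49 and 0.44. Of 5 cholangiocyte markers, Spp1 was the most abundant and was not called (0.29, adjusted p = 0.360 in PRF 50 against HFD). No lymphocyte marker (Nkg7 most abundant) and no skeletal muscle marker (Tnnt3 most abundant) reached the minimum level.

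Of the adipocyte markers, Plin1 and Lep were listed at 0 in all 9 mice, and Adipoq was at 0 except for 0.35 in HFD mouse 2 and 0.14 in HFD mouse 3. Alb was also listed at 0 in all 9 mice, so a 0 in every mouse does not show that a gene was not expressed. Cidec, a lipid droplet protein that fatty hepatocytes also make, was 1.99, 3.74 and 3.79 in HFD mice 1, 2 and 3. It was 1.85, 1.42 and 1.90 in ND mice 6, 7 and 9, and 0.08, 0.90 and 0.36 in PRF 50 mice 3, 9 and 10. PRF 50 lay below both other groups. Cidec fell by 2.72 in PRF 50 against HFD (SE 0.48, adjusted p = 0.0336 from limma), and gave 1.45 in HFD against ND (adjusted p = 0.190). PRF 50 against ND gave -1.27 and did not pass (adjusted p = 0.0729). The call of Cidec was lost without HFD mouse 2 (0.10), HFD mouse 3 (0.106), PRF 50 mouse 3 (0.0926) or PRF 50 mouse 10 (0.0739).

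Each group held 3 mice, and a rank test of 3 against 3 cannot give a p under 0.1. A p above the threshold does not show that values were equal. A gene called in one comparison and not in another was not shown to differ between them, and no such test was made. RNA levels do not give enzyme amounts or oxidation rates. The fast before tissue was taken applies to all groups, and fed livers were not sequenced. The cause of the differences between groups was not tested.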

How the data were processed

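Values are the deposited log2 values of the authors, 1 table per liver, read as log2(FPKM + 1); the added 1 was inferred from a lowest value of 0. The labels name TopHat and the mm10 genome, and the paper's methods name FASTX_Trimmer, BBMap, Cufflinks and a normalization between samples. Versions and annotation are not given in the sources used here. The 32 genes and the other lists were chosen with earlier results of these data known. Genes averaging 1 FPKM in the 6 mice compared were tested with limma 3.58.1 (R 4.3.3, lmFit and eBayes with trend) and Benjamini-Hochberg adjustment. Individual genes are named when they belong to the 32, pass the test, or are the most abundant of a list. Alternatives were a pseudocount of 0.1, other minimum levels, 1 fit of all 9 mice, eBayes without trend, median-of-ratios and quantile scaling, scaling to hepatocyte markers (chosen after seeing the data), and leaving out each mouse. For called genes of the other lists only the last was read. Ppara was named for its role. Some results of single genes of the other lists are not reported here.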

Additional observations from a re-analysis of the deposited data

How the results depend on the processing

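No paired analysis was possible because the groups share fewer than 2 replicate numbers and no link between mice of different groups is given. Against HFD the number called in PRF 50 was 5 with no minimum level, 6 after quantile normalization, and 0 to 13 leaving out 1 mouse. The share of all genes called was then 0.762%, 2.43%, and 0.149% to 2.40%. The median of the 32 genes was -0.38 after quantile normalization, -0.60 scaled to hepatocyte markers, and -0.58 to -0.42 leaving out 1 mouse. In HFD against ND the number called was 1 with no minimum level, 7 scaled to hepatocyte markers, and 1 to 2 leaving out 1 mouse. The median scaled to hepatocyte markers was 0.49, and the number past p and fold was 1 to 2 leaving out 1 mouse. In PRF 50 against ND 0 were called by limma under every alternative, where 6 of the 32 had an unadjusted p under 0.05. The number past p and fold was 0 at a minimum of 10 FPKM and 0 to 1 leaving out 1 mouse. The median was -0.11 after quantile normalization and -0.28 to -0.13 leaving out 1 mouse.

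The genes whose sign turned were not called in that comparison. For PRF 50 against HFD Mlycd gave 0.04 after quantile normalization and Acadsb -0.06 scaled to hepatocyte markers. Leaving out 1 mouse gave 0.00 to 0.54 for Acsl3, -0.19 to 0.01 for Mlycd and -0.02 to 0.16 for Acadsb.

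For HFD against ND quantile normalization gave 0.03 for Etfa and 0.03 for Etfb. Scaling to hepatocyte markers gave 0.04 for Acsl4, 0.08 for Acsl5, 0.04 for Mlycd, 0.09 for Acadsb, 0.17 for Acad8, 0.22 for Etfa and 0.21 for Etfb. Leaving out 1 mouse gave -0.07 to 0.09 for Etfa, -0.17 to 0.13 for Etfb, -0.48 to 0.06 for Acsl3 and 0.00 to 0.22 for Acaa2.

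For PRF 50 against ND median-of-ratios scaling gave 0.01 for Acsm3. Quantile normalization gave 0.06 for Acsm3, 0.05 for Acsm5, 0.05 for Acads, 0.08 for Acad11, 0.03 for Acadsb, 0.05 for Hadhb and 0.06 for Hadh. Scaling to hepatocyte markers gave 0.08 for Acsm3, 0.04 for Acsm5, 0.01 for Acads, 0.03 for Acad11, 0.03 for Acadsb and 0.06 for Hadh. Leaving out 1 mouse gave -0.15 to 0.07 for Hadh, -0.05 to 0.25 for Acsl3, -0.11 to 0.15 for Acsl4 and -0.13 to 0.10 for Acsm3. It gave -0.14 to 0.01 for Acad11, -0.17 to 0.02 for Hadhb, -0.10 to 0.33 for Cpt1a and -0.16 to 0.01 for Acadsb.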
